A study of Mus musculus with 12 samples.

Results

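Mouse Gfi1 replaced by the common form of human GFI1 was compared with unmodified mouse Gfi1 in granulocyte-monocyte progenitors (GMPs), the marrow cells that form granulocytes and monocytes. Arrays entered the comparison by their group label alone: 3 arrays of the knock-in of common human GFI1 (wtKI) against 3 of the wild type (WT), 6 of the 12 arrays of the series. All 14201 genes with a value were described. Both groups are C57BL/6 mice per the labels. The other arrays are 3 of Gfi1 knock-out (KO) and 3 of a human Gfi1-SNP knock-in (SNP), also labelled C57BL/6. Their levels are given beside some single genes and lists. Age, the number of human alleles per mouse, the number of founder lines and whether each array is a separate mouse are not stated in the labels. The p-values therefore describe array-to-array spread, which may be technical in part. RNA of sorted cells was amplified with a kit for very small inputs before hybridisation to Affymetrix Mouse Gene 1.0 ST arrays, whose probes are grouped into probe sets at the level of exons.

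GFI1 switches genes off as a zinc-finger protein. Its SNAG domain recruits histone demethylases and deacetylases, and its zinc fingers bind DNA with an AATC core. In marrow it restrains the proliferation of stem cells and favours granulocytes over monocytes, in part by holding back genes such as Csf1 and Egr2, and it represses its own gene and that of its relative Gfi1b. The comparison asks what differs in the GMP transcriptome when the human protein takes the place of the mouse one.

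The values are log2 signals, and the value of a gene on an array is the median of its probe sets that name that gene alone. Medians of the 6 arrays lay between 7.48 and 7.57 and their 5th percentiles between 5.3 and 5.6. A gene is called near background in a group where each of its 3 arrays lay under that array's own percentile, and the size of its difference is then not exact. Ccr1, Eya1, Fbp1, Ifi202b, Mx2, Sod3, Trim12a and Zmat3, named below, had a group mean that low with only 1 or 2 arrays of the group under it. Median correlations of the 6 arrays with the other arrays were 0.844 to 0.886, against 0.701 for KO 1 and 0.633 for SNP 1, and probe sets of a gene scattered by 0.22 to 0.304 on the 6 arrays, against 0.481 and 0.483 on KO 1 and SNP 1. Those 2 arrays entered no WT or wtKI value. Of 6 GMP markers measured, Cd34 (10.54 to 10.76), Mpo (11.26 to 11.51), Ctsg (11.41 to 11.57) and Kit (8.54 to 9.27) were high on all 6 arrays, while Fcgr3 (7.17 to 9.11) and Prtn3 (8.43 to 9.02) were lower in wtKI on every array, by -1.07 ± 0.33 and -0.36 ± 0.16. Of other cell types, Ebf1 of B cells and Ly6g of late neutrophils were near background in both groups, but the late neutrophil genes Ngp (6.14 to 9.20), Ltf (6.24 to 8.41) and Mmp8 (6.49 to 8.87), the eosinophil gene Prg2 (6.88 to 11.12) and the globin gene Hbb-b1 (3.90 to 8.80) had signal on some or all arrays. The arrays also differed in Y-linked genes within both groups. The 3 arrays of each group were thus not all from 1 mouse or pool. Eif2s3y was at 8.05, 8.05 and 2.06 on WT 1 to WT 3 and at 8.74, 1.94 and 2.07 on wtKI 1 to wtKI 3, so 1 WT array and 2 wtKI arrays were low, and Kdm5d and Uty had the same order.

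Gfi1 itself was measured by 5 probe sets, and these did not move together. The gene value was 5.59, 5.78 and 6.29 in WT and 6.28, 5.93 and 6.27 in wtKI. The groups overlapped, and the difference of 0.27 ± 0.23 (standard error of the fit, n = 3 and 3, as for every difference below) had a limma adjusted p of 0.863. Taking the mean of the probe sets instead of the median turned it to -0.19. Probe set 10532126 was at 5.08, 5.78 and 6.29 in WT and at 2.36, 3.65 and 2.78 in wtKI, where it was below the 5th percentile, a difference of -2.79 ± 0.44. Probe set 10532129 went the other way, from 5.59, 5.33 and 5.85 in WT to 6.88, 7.05 and 7.39 in wtKI, a difference of 1.52 ± 0.24. Neither passed over all 98975 probe sets tested (both with adjusted p = 0.556), although neither overlapped between the groups. The other 3 probe sets, 10532125, 10532127 and 10532130, differed by 0.15, -0.17 and 0.34 and overlapped. The SNP arrays, which also carry a human gene, were at 3.83, 2.89 and 3.26 for 10532126 and at 6.65, 6.66 and 7.14 for 10532129, on the side of the wtKI arrays for both. The array is designed on the mouse genome, so these values do not give the amount of human GFI1 RNA.

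**Figure D1:**
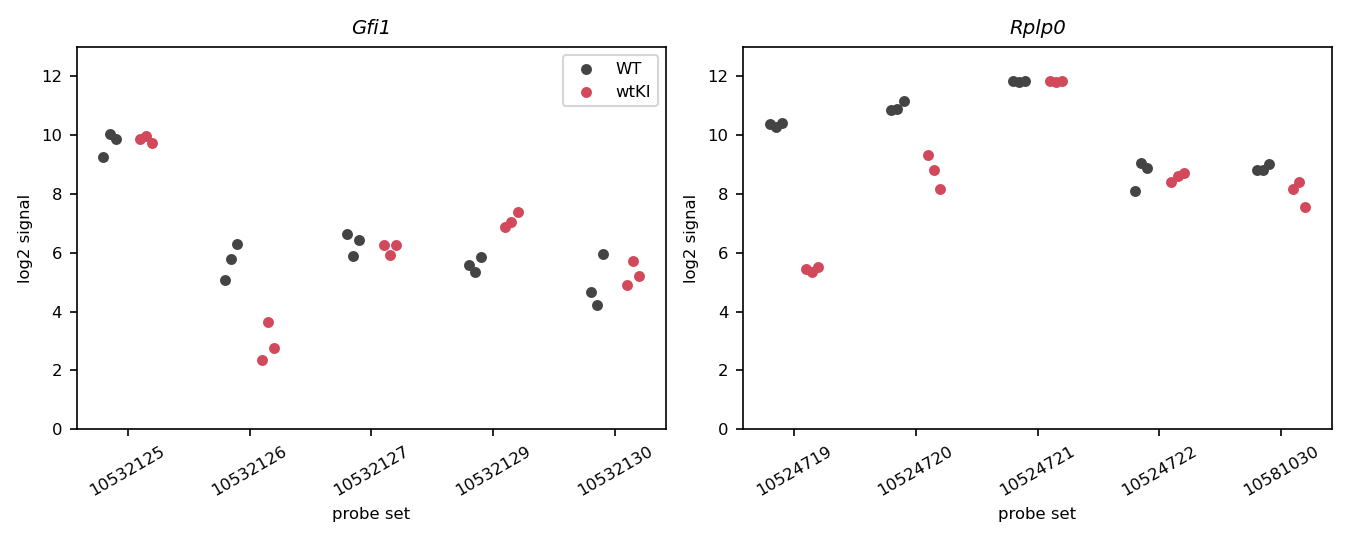
Log2 signal of each probe set of Gfi1 (left) and Rplp0 (right) on the 3 WT arrays (dark) and the 3 wtKI arrays (red), 1 point per array. In Gfi1 10532126 is lower and 10532129 higher in wtKI, and in Rplp0 10524719 drops from about 10.36 to 5.44 while 10524721 stays at 11.83.

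Gfi1b, the related repressor of erythroid and megakaryocyte cells, was at 6.42, 6.07 and 6.26 in WT and 6.42, 6.58 and 6.64 in wtKI. Printed to 2 decimals WT 1 and wtKI 1 were equal, and the groups just did not overlap. All 6 of its probe sets were higher in wtKI, by 0.09 to 0.51, but the difference of 0.30 ± 0.17 was not called (limma adjusted p = 0.798).

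Over all genes, limma called 0 of 14201 at an adjusted p under 0.05 (0%). At an unadjusted p under 0.05 there were 945 genes (6.65%), 497 higher in wtKI (3.5%) and 448 lower (3.15%), where 710 would be reached by the number tested alone. The WT and wtKI ranges were apart for 1717 genes (12.1%), 796 higher (5.61%) and 921 lower (6.49%). Of all genes 48.8% were higher in wtKI, and the median difference was -0.01. The median size of a difference was 0.18 and the median standard error 0.22. A difference of at least 1 was seen for 261 genes, of which 125 higher and 65 lower had an unadjusted p under 0.05, and 94 higher and 51 lower did not overlap. In simulated data with normal noise of each gene's spread, the test recovered 83% of 100 genes changed by 2 on the log2 scale. It recovered 100% of 100 genes changed by 4, and called 8 unchanged genes. The changed genes were planted together, which eases the adjusted threshold compared with data where few genes differ. The rates may thus be too high for these data, where 0 genes were called. Changes of 2 on the log2 scale could be missed with 3 arrays a group. The way probe sets were joined moved many values, since 46 of the 95 named genes refitted had a difference smaller by over 1.5 times when read from their brightest probe set, and 21 by median polish.

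**Figure D2:**
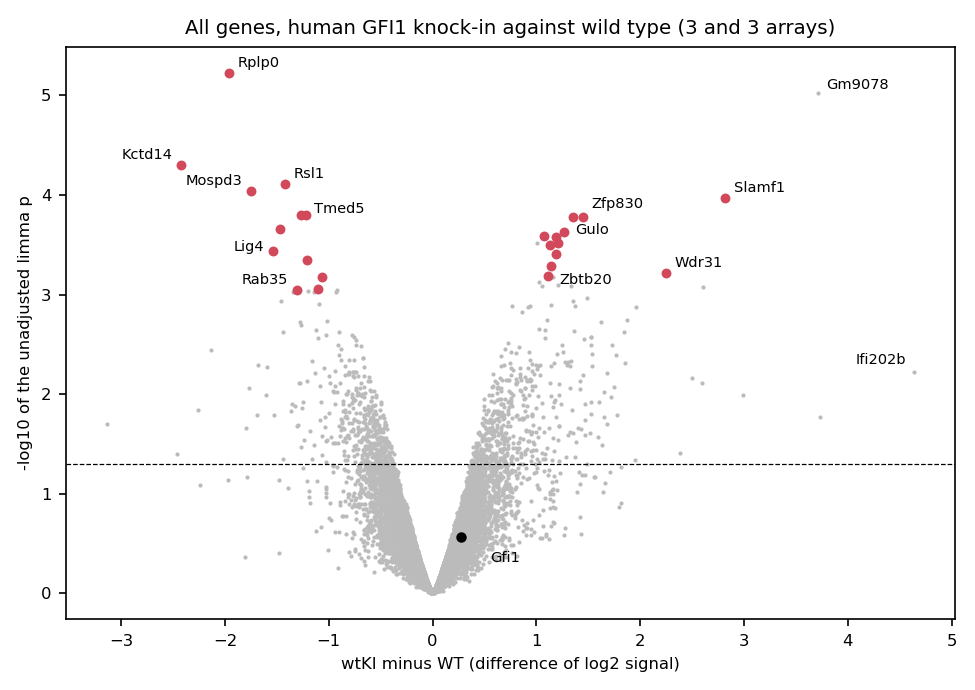
Each point is 1 of the 14201 genes, with the log2 difference wtKI minus WT on the x axis and -log10 of the unadjusted limma p on the y axis (dashed line, p of 0.05). Red points are the 12 genes per direction with the smallest p and no overlap, uncharacterised genes such as Gm9078 left out, and the black point is Gfi1 at 0.27. None of the genes passed after adjustment.

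Rplp0, the P0 protein of the ribosomal stalk and a common reference gene in expression work, had the smallest p-value. Its gene value was 10.38, 10.28 and 10.41 in WT and 8.39, 8.62 and 8.17 in wtKI. All wtKI arrays lay far below all WT arrays, by -1.96 ± 0.18, with a limma adjusted p of 0.0676 that just missed the threshold. It passed when the spread was estimated on all 12 arrays (adjusted p = 0.00701) or on the 10 without KO 1 and SNP 1 (adjusted p = 0.00442). Its 5 probe sets did not move alike. Probe set 10524719 fell from 10.38, 10.28 and 10.41 in WT to 5.45, 5.35 and 5.50 in wtKI, by 4.92 ± 0.18 (adjusted p = 0.00539). It was the only 1 of 98975 probe sets called, or 0.00101%. Probe set 10524720 was lower by -2.20 ± 0.32 and 10581030 by -0.83 ± 0.27, neither passing, while 10524721 was at 11.83 in both groups and 10524722 differed by -0.10. With the brightest probe set as the gene value the difference was therefore -0.00. Processed copies of ribosomal protein genes are common in the genome, so its probe sets may share signal with copies. The KO arrays were low as well for 10524719 (5.33, 5.66 and 5.27) and the SNP arrays high (10.10, 10.22 and 10.10). For the gene value, wtKI minus SNP was -1.75 ± 0.20 (adjusted p = 0.0232) and wtKI minus KO -0.06 ± 0.20. The low signal was thus in wtKI and KO and not in WT and SNP.

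Slamf1 encodes the receptor CD150, which marks long-lived blood stem cells and signals through the adaptor SAP in lymphocytes. Among the genes higher in wtKI only the uncharacterised Gm9078 had a smaller p-value. It was at 4.47, 4.40 and 4.35 in WT, near background, and at 6.77, 8.22 and 6.70 in wtKI. The WT arrays had an SD of 0.06. Every wtKI array lay above them, by 2.82 ± 0.39 on average, without passing (limma adjusted p = 0.239). Both of its probe sets were higher, by 2.17 and 3.48. With each array left out in turn the difference was between 2.33 and 3.09. The SNP arrays were at 5.65, 4.34 and 4.77 and the KO arrays at 4.83, 5.79 and 5.34, all under the lowest wtKI array. The differences of wtKI from SNP and KO, 2.31 and 1.91, were not called either.

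The promoter window of Slamf1, from 250 bases before to 50 bases after the transcription start, holds the letters AAATCAC, a core that GFI1 is reported to bind, on the strand opposite to the gene (GTGATTT). Of the 14 promoters matched among the genes with the smallest p or largest difference on the higher side, Slamf1 and Akap17b had these letters on either strand (14.3%). Among the 13 on the lower side 0 had them. The shorter AATC core was not counted, and it does occur on the lower side, as in the windows of Cfap126, Mospd3 and Rsl1. The sides are therefore not shown to differ in that core. The letters AAATCAC occur in 257 of 11312 promoters of genes with a value (2.27%) and in 853 of all 27025 promoters (3.16%). The 2 windows are shown so that the letters can be seen in place, in capitals, and their presence does not show that GFI1 binds there. Both are RefSeq sequences of build GRCm38.p6, Slamf1 at chr1:171766882-171767181 on the plus strand and Akap17b at chrX:36645365-36645664 on the minus strand.
Slamf1: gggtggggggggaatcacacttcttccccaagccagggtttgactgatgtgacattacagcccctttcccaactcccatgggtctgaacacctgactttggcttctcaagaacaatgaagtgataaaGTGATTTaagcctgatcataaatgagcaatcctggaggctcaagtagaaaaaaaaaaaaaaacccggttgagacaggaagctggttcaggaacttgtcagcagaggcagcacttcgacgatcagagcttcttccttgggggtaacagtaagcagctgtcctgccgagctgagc
Akap17b: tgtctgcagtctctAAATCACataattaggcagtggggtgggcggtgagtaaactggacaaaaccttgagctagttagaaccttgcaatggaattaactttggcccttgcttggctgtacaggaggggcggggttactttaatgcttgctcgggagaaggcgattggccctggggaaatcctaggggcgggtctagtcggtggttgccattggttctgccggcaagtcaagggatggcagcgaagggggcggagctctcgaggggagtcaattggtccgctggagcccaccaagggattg

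Akap17b, a member of the family of anchoring proteins for protein kinase A, was at 5.58, 5.65 and 5.42 in WT and 6.48, 6.96 and 6.77 in wtKI. The groups were apart by 1.19 ± 0.19 (adjusted p = 0.268), but its 2 probe sets differed by 0.06 and 2.31, and with the brighter of them as the gene value the difference was 0.06. Zfp830, a zinc-finger protein, was at 6.41, 6.97 and 6.29 in WT, at 8.0 on wtKI 1 and wtKI 2 and at 8.04 on wtKI 3 (1.45 ± 0.21, adjusted p = 0.239). Its SNP arrays (7.24, 7.85 and 7.95) also lay above the WT arrays. Its 3 probe sets differed by 0.03 to 2.63. Atp10d, a phospholipid flippase encoded on chromosome 5, was at 6.60, 6.79 and 6.78 in WT and 8.01, 8.39 and 7.82 in wtKI (1.35 ± 0.20, adjusted p = 0.239), and 21 of its 22 probe sets were higher. Zbtb20, a zinc-finger repressor of the BTB family, was at 6.83, 7.22 and 7.20 in WT and 8.41, 8.29 and 7.98 in wtKI (1.14 ± 0.20, adjusted p = 0.346), with 8 of 8 probe sets higher. Its KO arrays were at 9.41, 7.61 and 8.27, all above the WT arrays. In the setting where each was smallest, the differences were 0.03 for Zfp830, 0.31 for Zbtb20 and 0.91 for Atp10d. The unadjusted p of Zfp830 was under 0.05 in 12 of 15 settings.

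The other genes of smallest p on the higher side were Gulo, the last enzyme of vitamin C synthesis (1.27 ± 0.20), Rp1 (1.07 ± 0.17, near background in both groups), the leucine-rich membrane protein Lrig3 (1.21 ± 0.19, 6 of 6 probe sets higher), Fsd1l (1.13 ± 0.18), the mitochondrial ATPase Afg1l (1.19 ± 0.20), Wdr31 (2.25 ± 0.40) and the G protein subunit Gna14 (1.11 ± 0.20). Their limma adjusted p-values were 0.268 to 0.364. Gulo, Lrig3, Afg1l and Wdr31 were near background in WT. In the setting where each was smallest, Gna14 differed by 0.41 and Afg1l by 0.49. By size, and with uncharacterised genes left out, the largest differences with no overlap belonged to Ifi202b, Slamf1, Chil5, a chitinase-like protein (2.61 ± 0.49), Cldnd2 (2.60 ± 0.73), Gdpd3, a lipid phosphodiesterase (2.50 ± 0.68), and Ccr1, a chemokine receptor of myeloid cells (2.38 ± 0.96). None passed (adjusted p = 0.364 to 0.73 for the genes other than Slamf1). Chil5 and Cldnd2 were near background in WT. The KO arrays (6.31, 7.25 and 6.26) and SNP arrays (7.33, 5.04 and 6.24) of Chil5 all lay above its WT arrays. Ccr1 was at 5.93, 4.99 and 1.86 in WT and 6.11, 7.55 and 6.28 in wtKI, and WT 3 made up much of its difference, which was 1.18 without that array and 0.92 with the brightest probe set. Its unadjusted p was under 0.05 in 9 of 15 settings.

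Ifi202b, a DNA-binding protein of the interferon-inducible HIN-200 family whose level is known to vary between inbred mouse strains, had the largest difference of all named genes. It was at 7.10, 2.19 and 1.94 on WT 1 to WT 3 and at 8.17, 8.89 and 8.08 on the wtKI arrays. WT 1 was thus close to the wtKI arrays and the other WT arrays far below, near background, and the difference of 4.64 ± 1.24 was not called (adjusted p = 0.619). Without WT 1 it was 6.32 and was called (adjusted p = 0.00202). All 3 probe sets had this pattern, with differences of 2.79 to 5.30. The 6 KO and SNP arrays lay between 1.84 and 3.23, so WT 1 and the wtKI arrays were the high ones among the 12. WT 1, WT 2 and wtKI 1 were high for the Y-linked genes, so the order of the arrays for Ifi202b was not that of the Y-linked genes.

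Gm9078, an uncharacterised gene on the X chromosome with 1 probe set, is named after its values were seen. It was at 5.66, 7.12 and 5.87 in WT and 9.91, 9.99 and 9.89 in wtKI, a difference of 3.71 ± 0.36 with an adjusted p of 0.0676. The wtKI arrays had an SD of 0.06. It passed on the 10 arrays (adjusted p = 0.0196) and was not called on all 12 (adjusted p = 0.444). The SNP arrays were at 8.27, 7.30 and 7.23 and the KO arrays at 8.22, 5.19 and 6.48.

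**Figure D3:**
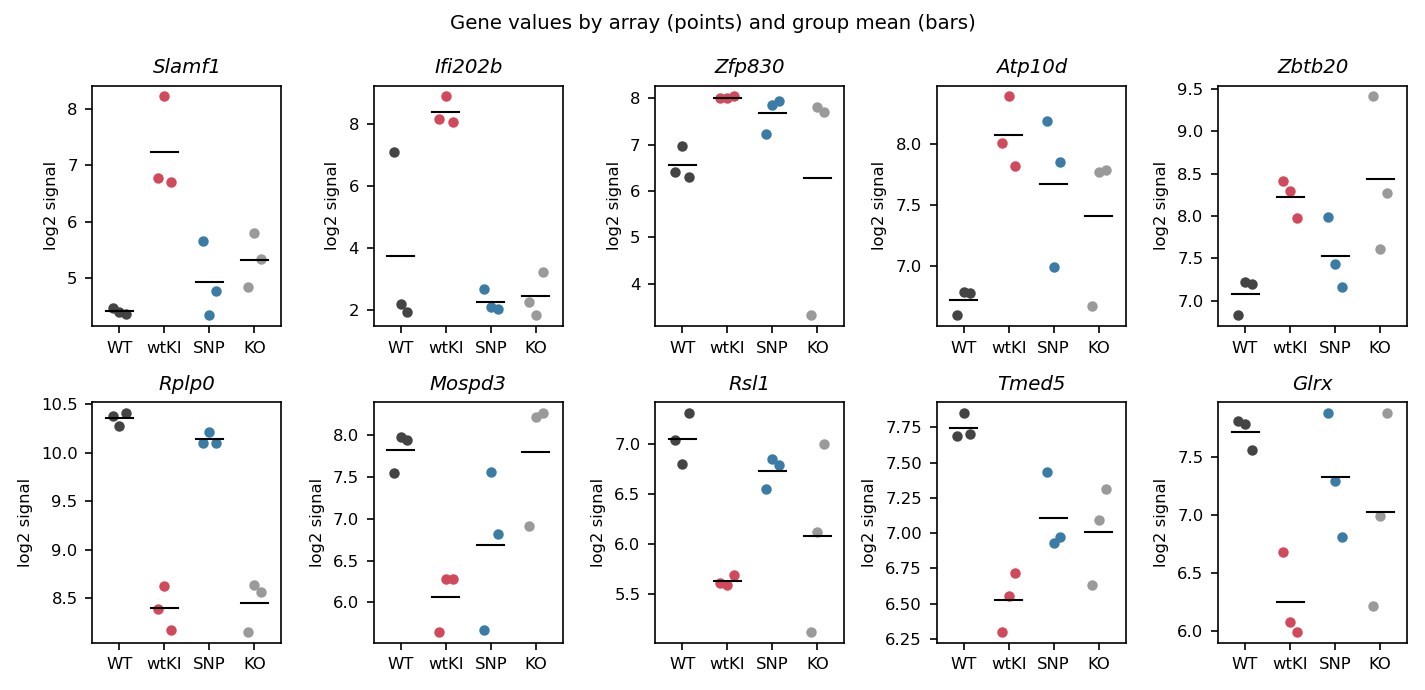
Gene values (log2 signal) of 5 genes higher and 5 genes lower in wtKI on every array, by group, with 1 point per array and a bar at the group mean; each panel has its own y axis, which does not start at 0. WT and wtKI points do not overlap in any panel, while the SNP and KO points lie with wtKI for some genes and with WT for others.

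On the lower side after Rplp0 came Kctd14, of the family with potassium channel tetramerisation domains, from 7.30, 7.32 and 6.45 in WT to 5.03, 4.36 and 4.42 in wtKI (-2.42 ± 0.30, adjusted p = 0.237, 1 probe set, near background in wtKI). Rsl1, a KRAB zinc-finger repressor known for its control of sex-dependent liver genes, was at 7.04, 6.80 and 7.31 in WT and 5.61, 5.59 and 5.69 in wtKI. The groups were apart (-1.42 ± 0.19, adjusted p = 0.239), and 4 of 4 probe sets were lower. Rsl1 and Zfp456 (-1.80 ± 0.63) both belong to a large family of similar zinc-finger genes on chromosome 13, whose copies probe sets may not tell apart. Zfp456 differed by -1.05 without wtKI 2 and by -0.07 with its brightest probe set. Mospd3, a membrane protein of the endoplasmic reticulum, was at 7.55, 7.97 and 7.94 in WT and 5.65, 6.28 and 6.28 in wtKI (-1.75 ± 0.24, adjusted p = 0.239), with 4 of 4 probe sets lower. Glrx, the glutaredoxin that reduces protein disulphides, was at 7.81, 7.79 and 7.56 in WT and 6.68, 6.07 and 5.99 in wtKI (-1.47 ± 0.23, adjusted p = 0.268), with 5 of 5 probe sets lower, the brightest by -0.35.

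Tmed5, a cargo receptor between the endoplasmic reticulum and the Golgi, lies close to Gfi1 on chromosome 5. It was at 7.69, 7.85 and 7.70 in WT and 6.30, 6.55 and 6.72 in wtKI (-1.22 ± 0.18, adjusted p = 0.239). The SNP arrays (7.43, 6.93 and 6.97) and KO arrays (6.63, 7.09 and 7.31) lay below the lowest WT array, and 3 of its 4 probe sets were lower. The remaining genes of smallest p were Rsad1 (-1.27 ± 0.18), Lig4, the ligase of DNA end joining (-1.54 ± 0.26), Commd2 (-1.21 ± 0.21), Enoph1, an enzyme of methionine salvage (-1.06 ± 0.19), Glo1, the glyoxalase that detoxifies methylglyoxal (-1.10 ± 0.21), and Rab35, a GTPase of endosome recycling (-1.31 ± 0.25). Their adjusted p-values were 0.239 to 0.364. Lig4 was near background in wtKI. Enoph1 was lower in 1 of its 3 probe sets only, and turned to 0.07 with the brightest probe set. Read from their brightest probe set the differences were also small for Commd2 (-0.04) and Glo1 (-0.11), and -0.34 for Rsad1, -0.36 for Rab35, -0.38 for Tmed5 and -0.50 for Lig4. By size the list also held Trim12a (-2.26 ± 0.72), Sod3, the extracellular superoxide dismutase (-2.13 ± 0.51), and Cfap126 (-1.77 ± 0.51, near background in wtKI), with adjusted p of 0.619 to 0.651. Without wtKI 3 Trim12a differed by -1.45.

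Groups of genes with a shared role were described by counts of their measured members, beside 48.8% of all genes being higher, and no member of any list passed after adjustment. Genes of stem and early progenitor cells were higher in 18 of 19 members, with a median of 0.34 against -0.01 over all genes, and 5 had an unadjusted p under 0.05 and were higher, as were 3.5% of all genes. Beside Slamf1 these were Myct1 (1.53 ± 0.47, near background in WT), the transcription cofactor Eya1 (1.53 ± 0.50), the homeobox gene Meis1 (1.01 ± 0.42) and Angpt1, the ligand of the Tek receptor (0.80 ± 0.33). Eya1 was at 4.06, 5.63 and 5.72 in WT and 7.33, 6.62 and 6.04 in wtKI, without overlap, and differed by 0.99 without WT 1. Angpt1 differed by 0.52 without WT 3. Meis1 overlapped, at 6.10, 6.18 and 7.60 in WT and 7.27, 7.55 and 8.09 in wtKI, with WT 3 above wtKI 1 and wtKI 2. Kit and Cd34, which GMPs express themselves, differed by 0.06 and 0.08, and Lmo2 was the lower member (-0.16 ± 0.20). The stem cell markers Mecom, Hlf and Procr differed by 0.18, 0.07 and 0.23, without an unadjusted p under 0.05. Ly6a overlapped, at 4.47, 3.78 and 5.81 in WT and 3.30, 6.69 and 8.35 in wtKI (1.43 ± 1.16). Averaged over the members, the wtKI arrays were 0.35, 0.71 and 0.81 above the WT mean and the WT arrays at -0.07, -0.09 and 0.16, with wtKI 2 and wtKI 3, which were low for Y-linked genes, highest. With the Y-linked level as a term in the fit the median was 0.33, and it was 0.26 to 0.34 with each array left out. Over the same members the KO arrays averaged 0.35, 0.43 and 0.59 above the WT mean. The SNP arrays lay at -0.43, 0.01 and 0.35 from it. A rise over WT was thus seen in KO as well. In bulk samples, fewer cells of a type and less RNA per cell cannot be told apart.

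The Hoxa and Meis1 genes of leukaemic self-renewal share members with that list. They were higher in 8 of 9, with a median of 0.25 that was 0.16 without WT 2 and 0.38 without WT 3. The 4 with an unadjusted p under 0.05, beside 3.5% of all genes higher at that p, were Eya1, Meis1, the receptor kinase Flt3 (0.72 ± 0.27) and Pbx3, a cofactor of Hox proteins (0.51 ± 0.21, and 0.06 with its brightest probe set). Flt3 was at 7.48, 6.91 and 7.49 in WT and 7.86, 8.50 and 7.69 in wtKI. Hoxa9, a gene GFI1 is reported to repress, differed by 0.25 ± 0.21, Hoxa7 by 0.10 ± 0.15, and Hoxa2 by -0.75 ± 0.42.

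Immediate-early and stress genes, which respond within minutes to growth factors and also to handling of cells, had the highest median of all lists (0.45), with 17 of 18 members higher, 7 without overlap (5.61% of all genes) and 5 with an unadjusted p under 0.05 (3.5% of all genes). Jun, a subunit of AP-1, was at 7.11, 7.96 and 8.32 in WT and 9.05, 9.03 and 9.69 in wtKI (1.46 ± 0.34, adjusted p = 0.574). Every wtKI array lay above every WT array, and the difference was 1.11 to 1.72 with each array left out. The zinc-finger factors Egr1 (0.97 ± 0.38) and Egr2 (0.57 ± 0.23), and Fos (0.56 ± 0.23) and Jund (0.45 ± 0.18) of the AP-1 family, were the other 4. Egr1 overlapped between the groups, differing by 0.58 without wtKI 3, and Egr2 did not. Klf6 was the member that was lower (-0.41 ± 0.26). The members' mean was 0.27, 0.51 and 0.53 above WT on the wtKI arrays, and the median was 0.39 with the Y-linked term.

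Genes that GFI1 is reported to repress, 21 of which were measured, were split, 10 higher and 11 lower, with a median of -0.01 that matched that of all genes. Egr2 and Meis1 were the 2 with an unadjusted p under 0.05, both higher, as were 3.5% of all genes. Csf1, the growth factor of monocytes, was at 4.88, 7.09 and 6.80 in WT and 6.22, 6.26 and 7.37 in wtKI (0.36 ± 0.59), and Spi1, the PU.1 factor, was at -0.34 ± 0.21. The subunits of the GFI1 corepressor complexes, such as demethylases and deacetylases, were also split, 9 higher and 10 lower (median -0.03). Ajuba, an adaptor that binds the SNAG domain (-0.58 ± 0.23), had an unadjusted p under 0.05, and Ehmt2, the histone methyltransferase G9a, was at 7.27, 7.22 and 7.24 in WT and 6.71, 6.88 and 7.16 in wtKI (-0.33 ± 0.18) without overlap. Transcription factors of myeloid fate were higher in 15 of 26 (median 0.08, or 0.02 without wtKI 1), with Ikzf2 at 1.22 ± 0.36, Egr1 and Egr2 under an unadjusted p of 0.05.

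**Figure D4:**
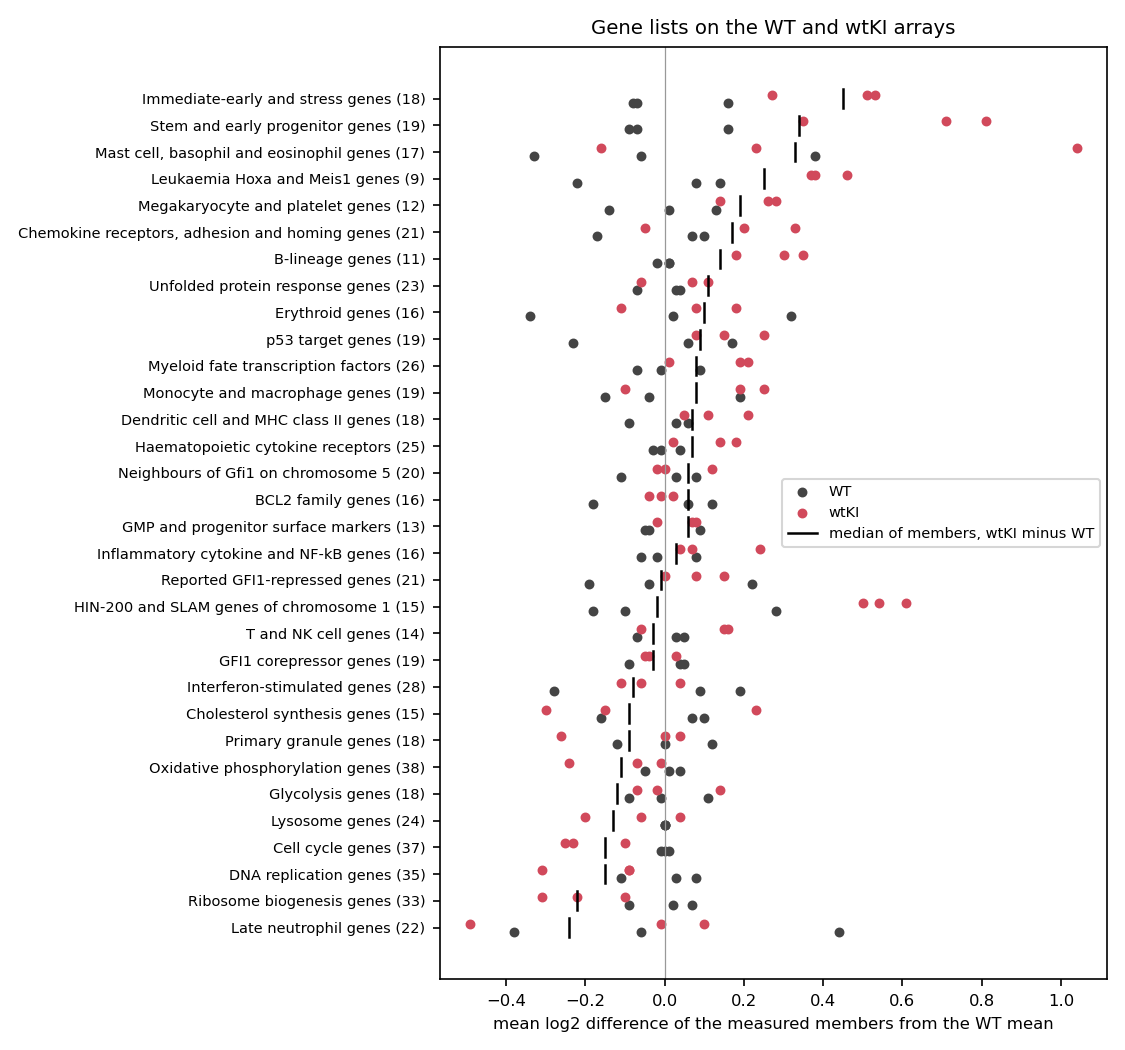
Mean log2 difference from the WT mean over the measured members of each list (number in parentheses) on the 3 WT arrays (dark) and 3 wtKI arrays (red), with a black tick at the median of the members' differences wtKI minus WT. The lists are ordered by that median, from 0.45 for immediate-early and stress genes to -0.24 for late neutrophil genes, and lists share members.

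Cell cycle genes were lower in 29 of 37 members (median -0.15), and the 5 with an unadjusted p under 0.05 were all lower, as were 3.15% of all genes. They were cyclin Ccnd2 (-0.74 ± 0.21), at 9.79, 9.54 and 9.63 in WT and 8.52, 9.16 and 9.05 in wtKI, the inhibitor of cyclin D kinases Cdkn2d (-0.90 ± 0.31), the centromeric histone Cenpa (-0.52 ± 0.18), the mitotic kinase Aurkb (-0.55 ± 0.20) and the checkpoint kinase Bub1b (-0.41 ± 0.18). All 5 did not overlap between the groups, though Bub1b was at 0.02 with its brightest probe set. Over the 15 settings tried, the smallest differences were -0.11 for Cenpa, -0.25 for Cdkn2d, -0.27 for Aurkb and -0.49 for Ccnd2. Ccnd2 is known to drive cells into S phase, while Cdkn2d opposes this. The proliferation markers Mki67 and Top2a differed by 0.02 ± 0.18 and 0.01 ± 0.16. DNA replication genes were lower in 31 of 35 (median -0.15), with Rfc4 of the clamp loader at -0.51 ± 0.22 the member with an unadjusted p under 0.05. Without wtKI 3 both medians were -0.08.

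Ribosome biogenesis genes, which build ribosomal subunits in the nucleolus, were lower in 29 of 33 (median -0.22). None had an unadjusted p under 0.05, and 7 did not overlap, all lower, as were 6.49% of all genes. Rrp1b (-0.72 ± 0.31), Tcof1 (-0.51 ± 0.25), Bop1 (-0.47 ± 0.25) and Rrp12 (-0.47 ± 0.22) had the largest differences. The median was -0.06 when each gene was read from its brightest probe set, and -0.13 without WT 3. Oxidative phosphorylation genes were lower in 27 of 38 (median -0.11), led by Ndufb10 of complex I (-0.53 ± 0.23), and that median was -0.01 without wtKI 3.

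Granule and neutrophil genes did not share a direction on all arrays. Primary granule genes, which GMPs express, were lower in 12 of 18 (median -0.09, or 0.03 without wtKI 3). The proteinase Prtn3 was lower without overlap (-0.36 ± 0.16). Mgst1 was the member with an unadjusted p under 0.05, and it was higher without overlap (0.47 ± 0.20). Late neutrophil genes were lower in 16 of 22 (median -0.24), but their mean lay at -0.06, -0.38 and 0.44 on the WT arrays and at -0.01, 0.10 and -0.49 on the wtKI arrays, and without WT 3 the median was 0.06. Mmp8, the neutrophil collagenase, stood out in that list on the higher side. It was at 6.49, 7.10 and 7.01 in WT and 8.87, 8.17 and 7.57 in wtKI (1.33 ± 0.34, adjusted p = 0.619). The KO arrays were higher still, at 10.32, 10.35 and 10.48, and wtKI minus KO was -2.18 ± 0.65, which was not called. The SNP arrays, at 11.34, 8.75 and 8.12, also lay above WT. Itgam, the integrin CD11b, was lower with little spread, at 7.05, 7.06 and 7.04 in WT and 6.56, 6.37 and 6.60 in wtKI (-0.54 ± 0.16, adjusted p = 0.629). In the setting where it was smallest, the difference of Itgam was -0.13.

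Monocyte and macrophage genes were higher in 12 of 19 (median 0.08, or 0.02 without WT 1), and dendritic cell and MHC class II genes in 11 of 18 (median 0.07, or -0.01 without wtKI 3). Ly86, the partner of the receptor CD180, was lower, at 8.16, 8.66 and 8.27 in WT and 7.89, 6.97 and 6.84 in wtKI (-1.13 ± 0.30, adjusted p = 0.619), and so was the Fc receptor Fcgr3, a surface marker commonly used to sort GMPs, at 8.14, 9.11 and 8.97 in WT and 8.04, 7.17 and 7.82 in wtKI (-1.07 ± 0.33, adjusted p = 0.639). Both lay apart between the groups. Surface markers of GMPs and progenitors, of which Fcgr3 is 1, were higher in 9 of 13 (median 0.06), with the leukocyte phosphatase Ptprc at 0.41 ± 0.17. Higher without overlap were the integrin Itgax (0.73 ± 0.20), the mannose receptor Mrc1 (0.57 ± 0.20), the protease Ctss (0.63 ± 0.18) and the class II chain H2-Eb1 (0.49 ± 0.20). Lysosome genes were lower in 17 of 24 (median -0.13, or -0.21 without WT 2), with Ctss, Ctsl (0.71 ± 0.27), Ctsd (0.59 ± 0.19) and the channel Mcoln1 (0.52 ± 0.19) higher and Ctsz (-0.56 ± 0.16) and Hexa (-0.59 ± 0.20) lower at an unadjusted p under 0.05. These were 4 higher and 2 lower, beside 3.5% and 3.15% of all genes. Ctsd had the opposite sign by median polish, mean and brightest probe set (-0.13, -0.11 and -0.15). Over the 15 settings tried, the smallest differences were 0.01 for Mcoln1, -0.10 for Ctsz, -0.12 for Hexa and 0.06 for Mrc1.

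Receptors for cytokines were higher in 15 of 25 (median 0.07), and the 5 with an unadjusted p under 0.05 were all higher, as were 3.5% of all genes. They were Tgfbr1, the type I receptor for TGF-beta (0.71 ± 0.20), Il17ra (0.47 ± 0.19), Flt3, Csf2rb, the beta chain shared by the receptors of GM-CSF, IL-3 and IL-5 (0.42 ± 0.18), and its IL-3-specific copy Csf2rb2 (0.97 ± 0.33). Csf2rb was at 7.49, 7.13 and 7.17 in WT and 7.68, 7.80 and 7.57 in wtKI, and the near-identical Csf2rb2 at 5.30, 6.49 and 5.64 in WT and 6.46, 6.71 and 7.19 in wtKI. The sequences of that pair are alike, so their probe sets may share signal. In the setting where each was smallest, Tgfbr1 differed by 0.25, Il17ra by 0.15, Flt3 by 0.48, Csf2rb by 0.28 and Csf2rb2 by 0.48. The unadjusted p of Csf2rb was under 0.05 in 4 of 15 settings, and that of Il17ra in 5 of 15. Chemokine receptor and homing genes were higher in 11 of 21 (median 0.17), with Selplg, the ligand of P-selectin, lower (-0.45 ± 0.17). That median was -0.04 without WT 1 and -0.02 with the Y-linked term.

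Genes of mast cells, basophils and eosinophils were higher in 12 of 17 (median 0.33), with Hdc, the enzyme that makes histamine, at 6.82, 8.27 and 8.02 in WT and 8.81, 8.88 and 8.98 in wtKI (1.18 ± 0.36, adjusted p = 0.639, and 0.74 without WT 1). Hdc was at 9.34, 9.52 and 9.54 on the KO arrays and 9.23, 8.56 and 7.89 on the SNP arrays. Ms4a2, of the IgE receptor (0.69 ± 0.29), and Csf2rb2 were the other members with an unadjusted p under 0.05. All 3 were higher, as were 3.5% of all genes at that p. Over the members, wtKI 3 averaged 1.04 above the WT mean, and wtKI 1 and wtKI 2 lay at -0.16 and 0.23. Without wtKI 3 the median was -0.05. The KO arrays averaged 0.94, 0.57 and 0.60 above the WT mean, and the SNP arrays lay at 0.14, -0.14 and 0.10. Erythroid genes (9 of 16 higher, median 0.10), megakaryocyte and platelet genes (8 of 12, median 0.19, with Pf4 at 0.74 ± 0.27), B-lineage genes (9 of 11, median 0.14) and T and NK cell genes (6 of 14, median -0.03) had 0, 1, 0 and 1 members with an unadjusted p under 0.05. The erythroid median was 0.22 without WT 3, the megakaryocyte median 0.07 without WT 2, and the B-lineage median 0.30 without WT 2 and 0.08 without wtKI 3. The T and NK cell gene was Il2rb (0.66 ± 0.23). Of all genes 6.65% had such a p. The part of such cells in the other differences was not tested.

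Interferon-stimulated genes were lower in 18 of 28 (median -0.08) and split at an unadjusted p under 0.05 into 4 higher and 3 lower (3.5% and 3.15% of all genes). Without WT 1 the median was -0.21. Mx2 (0.96 ± 0.31), the GTPase Iigp1 (0.77 ± 0.25), Stat2 (0.69 ± 0.25) and Oas3 (0.54 ± 0.21) were higher, and Oasl2 (-1.06 ± 0.39, near background in wtKI), Oas1a (-0.83 ± 0.31) and Usp18 (-0.66 ± 0.23) lower. With the brightest probe set Stat2 turned to -0.03 and Usp18 to 0.44, and Usp18 was at 0.15 by median polish. Oas1a, Oas3 and Oasl2 are all on chromosome 5 and went in different directions. Of the HIN-200 and SLAM genes on chromosome 1, 4 of 15 were higher at an unadjusted p under 0.05, as were 3.5% of all genes. They were Ifi202b, Slamf1, Ifi204 (1.65 ± 0.54) and the DNA sensor Aim2 (0.52 ± 0.18). The list was split 7 to 8 with a median of -0.02 and a mean of 0.55. Slamf9, Cd48 and Ifi203 differed by -0.02 ± 0.17, -0.15 ± 0.19 and 0.01 ± 0.19. Ifi204 differed by 0.18 with its brightest probe set. It was at 8.35, 5.98 and 6.65 in WT and 8.32, 8.88 and 8.75 in wtKI, with WT 1 again among the wtKI arrays as for Ifi202b, a related gene with which it may share signal.

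Of the other lists, p53 targets were higher in 12 of 19 (median 0.09), with Zmat3 higher (1.49 ± 0.64, on wtKI 2 and wtKI 3 and not on wtKI 1) and Gadd45b lower (-0.65 ± 0.21). BCL2 family genes (9 of 16 higher, median 0.06) and unfolded protein response genes (13 of 23, median 0.11, or -0.01 without WT 1) had no member with an unadjusted p under 0.05. Inflammatory cytokine and NF-kB genes were higher in 10 of 16 (median 0.03), with Tnfaip3, an inhibitor of NF-kB, at 0.87 ± 0.32 and at 0.56 without wtKI 3. Glycolysis genes were lower in 11 of 18 (median -0.12, or -0.01 without wtKI 3), yet Fbp1, the enzyme that runs the pathway backwards, was higher, at 4.89, 5.40 and 5.09 in WT and 6.01, 6.83 and 6.55 in wtKI (1.33 ± 0.25, adjusted p = 0.364). The muscle-type phosphofructokinase Pfkm was at 0.67 ± 0.22 and the platelet type Pfkp at -0.66 ± 0.27, or -0.43 without wtKI 3. Cholesterol synthesis genes were lower in 10 of 15 (median -0.09, and -0.29 without wtKI 2), with Cyp51 at -0.80 ± 0.21 and at 0.07 with its brightest probe set.

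Along the genome, genes with an unadjusted p under 0.05 were most frequent on chromosome 5, which holds Gfi1, on the 6 arrays but not in every setting. There 92 of 881 genes (10.4%) had an unadjusted p under 0.05, 44 higher and 48 lower, against 6.65% of all genes. The share was above that of all genes in all 19 settings tried, with a range of 4.88% to 13.6%, the lowest on all 12 arrays. The same held for chromosomes 13 and 1 in 19 of 19 settings and for X in 17 of 19. Chromosome 5 was above these 3 in 14 of the 19, and on all 12 arrays it was below chromosome 13 (4.9%) and X (5.06%). With the Y-linked term it was at 7.26% and chromosome 13 at 7.25%. The chromosomes named were picked after their shares were seen. The share on chromosome 5 was 7.49% without WT 1, 7.95% without wtKI 1 and 7.6% without wtKI 3, each below that of chromosome 13 (8.24%, 8.43% and 8.63%), as was 10.6% against 10.9% without genes on 1 probe set. Chromosomes 13 (9.41%), X (8.97%) and 1 (8.26%) followed, and chromosome 8 had the lowest share of the 19 autosomes and X (4.69%). On X 30 genes were higher and 9 lower, and its share was 6.21% with the Y-linked term. Of the 12 genes with the smallest p on the lower side, Rplp0, Mospd3, Tmed5, Enoph1 and Rab35 lie on chromosome 5.

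**Figure D5:**
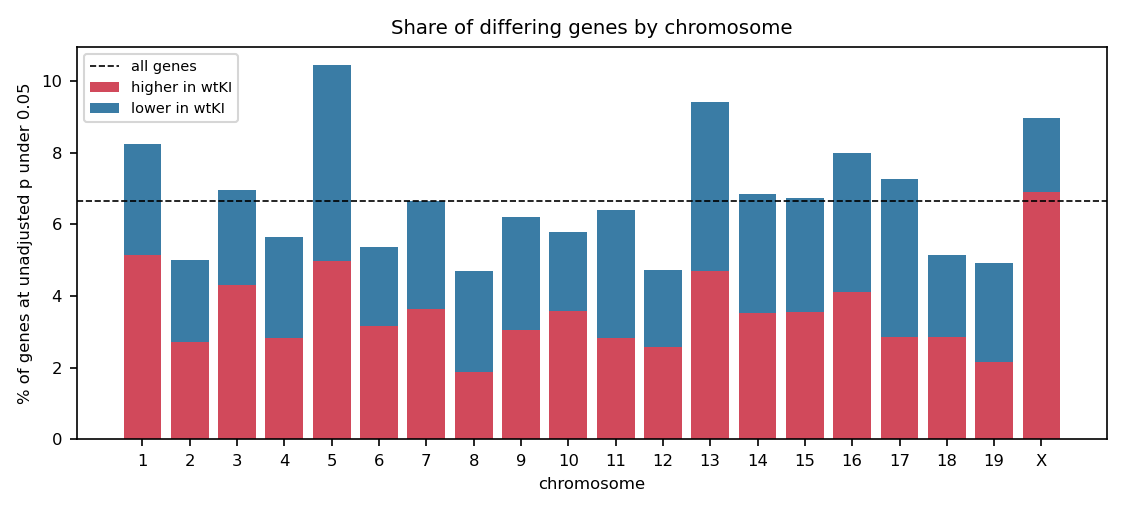
Percent of the genes of each chromosome with an unadjusted limma p under 0.05 in wtKI against WT, split into genes higher (red) and lower (blue) in wtKI, with a dashed line at 6.65% for all genes. Chromosome 5 has the tallest bar on these 6 arrays at 10.4%, and X has mostly genes that are higher. The 7 genes on Y, with none under that p, are left out.

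The 20 genes nearest to Gfi1, 10 on each side in RefSeq order, were not set apart as a block. Of these 13 were higher and 7 lower (median 0.06). Tmed5 (lower) and Tgfbr3, the TGF-beta co-receptor (0.71 ± 0.25), had an unadjusted p under 0.05, as did 6.65% of all genes. Next to Gfi1, Rpap2 differed by -0.45 ± 0.24 and Evi5 by -0.19 ± 0.31. Between Evi5 and Tmed5, Mtf2 of the Polycomb complex was at 9.61, 9.61 and 9.64 in WT and 10.02, 9.88 and 10.02 in wtKI (0.35 ± 0.15, adjusted p = 0.747), and on the far side of Rpap2, Cdc7, a kinase of replication origins, was higher by 0.72 ± 0.33. In windows of 50 genes along the chromosome, the share of genes with an unadjusted p under 0.05 was 10% in the window around Gfi1, 20% in the window from Gltp to Tbx3 (10 genes, 7 of them lower) and 2% in the window from Pds5a to Ppat.

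Single probe sets were counted by chromosome as well. Among the 30 probe sets with the smallest p, a set looked at after the values were seen, 8 mapped to genes on chromosome 5, where 6.74% of all probe sets lie, and all 8 were lower in wtKI. Beside the Rplp0 probe set they were in Anapc5 of the anaphase-promoting complex, Cct6a of the CCT chaperonin, the ATP-gated channel P2rx7 and Sdad1. The others were in Ep400 of a chromatin remodelling complex, Oasl2 and the RNA-processing factor Srrt. The gene values fell by less than these probe sets or were higher. They differed by 0.50 in P2rx7 and 0.14 in Sdad1. In Srrt, Ep400, Cct6a and Oasl2 they differed by -0.15, -0.31, -0.66 and -1.06. In Anapc5, probe set 10533554 was at 9.92, 10.12 and 10.15 in WT and 6.65, 6.48 and 5.78 in wtKI (-3.76 ± 0.28, adjusted p = 0.157), while the gene value differed by 0.04 ± 0.18 over 20 probe sets. In Cct6a, probe set 10526081 was at 11.56, 11.52 and 11.42 in WT and 8.07, 8.29 and 7.18 in wtKI (-3.65 ± 0.32, adjusted p = 0.195). Each of these 2 probe sets was low on every wtKI array. The KO arrays were split for Anapc5 (6.22, 5.29 and 9.95) and high for Cct6a (11.08, 11.24 and 11.32), and the SNP arrays were high for both. Of all chromosome 5 probe sets 4.72% were lower at an unadjusted p under 0.05, against 3.17% of all probe sets, and 3.57% were higher, against 3.31%.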

How the data were processed

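The authors deposited log2 signals, and RMA is the tool that the submitters' processing notes name, without version or settings. The deposited table held 105661 probe sets, of which 98975 carry 1 gene symbol, 1703 several and 4983 none. Every probe set reaches at least 6.14 on some array, so genes low on all arrays are missing. Single-symbol probe sets covered 14201 genes (median 5 each, and 1 for 2874 genes). Of these symbols, 1752 were updated and 14142 placed on chromosomes with RefSeq (GRCm38.p6).

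WT and wtKI were compared on 6 arrays with limma 3.58.1 (lmFit and eBayes, R 4.3.3), two-sided, with Benjamini-Hochberg adjustment over all genes and a threshold of 0.05. Comparisons of wtKI with SNP and KO used all 12 arrays. The fit was tested on simulated data. The number of arrays limits the precision. Python 3.11.15 and pandas 2.3.3 made the gene values and counts.

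The genes named were Gfi1 and Gfi1b, the 12 per direction with the smallest p and the 6 with the largest difference (unadjusted p under 0.05) among those without overlap, and in each list the members with an unadjusted p under 0.05 and up to 4 with the largest difference. The middle parts skipped uncharacterised, olfactory, vomeronasal and small RNA genes and receptor segments, and the Y-linked genes served as a check. Other names were chosen after their values were seen. The comparison and lists were chosen with earlier results of these data known. Alternatives covered the gene value, scaling, filters, the arrays and terms in the fit, and leaving out each array.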

Additional observations from a re-analysis of the deposited data

How the results depend on the processing

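The count of genes called was 0 on the 6 arrays. It was 2 without the dimmest 30% of genes, with a robust variance trend, with array weights (which ran from 0.66 to 1.97) and when 10 arrays were fitted (KO 1 and SNP 1 left out), in each case Gm9078 and Rplp0. It was 1 (Rplp0) on all 12 arrays, and 1 over every probe set. With each array left out in turn it was 0 to 2 (Ifi202b and Slc10a1 without WT 1, Gm9078 without WT 2). Unadjusted p-values under 0.05 numbered 464 on all 12 arrays and 790 to 1240 with each array left out. Of 1425 values of 95 named genes under 15 settings, 1412 kept their direction and side of the threshold, 3 passed it (Ifi202b without WT 1, Rplp0 on 12 and on 10 arrays) and 10 reversed. The reversed values were Gfi1 at -0.19 by the mean of probe sets, Enoph1 at 0.07, Stat2 at -0.03, Bub1b at 0.02, Cyp51 at 0.07, Usp18 at 0.44 and Ctsd at -0.15 by the brightest probe set, Usp18 at 0.15 and Ctsd at -0.13 by median polish, and Ctsd at -0.11 by the mean. The cause of these changes was not tested. Of 416 list medians, 24 moved by over the SD between arrays.

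The replicate numbers did not pair the arrays, since deviations of same-numbered arrays correlated at -0.04, -0.02 and -0.05. With the replicate number as a block 0 genes were called and 918 had an unadjusted p under 0.05. Low signal limits the size of differences near background.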

Other observations

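Several probe sets and genes outside the lists, chosen after their values were seen, were far apart between the groups. Ndrg2, a gene of the N-myc downstream-regulated family, had 2 such probe sets, both under the 5th percentile of each WT array. Probe set 10419586 was at 2.55, 3.07 and 3.05 in WT and 6.49, 6.32 and 6.24 in wtKI (3.45 ± 0.23, limma adjusted p = 0.115), and 10419587 was higher by 3.03 ± 0.36. The KO arrays were higher still for 10419586, at 8.70, 7.21 and 7.45. The other probe sets of Ndrg2 differed by less, from 1.90 in 10419589 to -0.31 in 10419593. Riok1, a kinase of ribosome assembly, was lower in wtKI in 10404631 (-3.01 ± 0.33) and 10404648 (-1.90 ± 0.24). Top2a was lower in 10390737 (-2.10 ± 0.22), at 11.13, 11.03 and 10.64 in WT and 8.95, 8.86 and 8.70 in wtKI, and by less in 10390724 (-0.65 ± 0.21), while its gene value over 37 probe sets differed by 0.01 ± 0.16. Nme1, a nucleoside diphosphate kinase, was lower in 10389868 (-2.63 ± 0.23), at 10.20, 9.55 and 9.82 in WT and 7.21, 7.24 and 7.22 in wtKI. None of these probe sets passed over all probe sets. Gene values of Riok1 and Nme1 are not given here, so a change of those genes as a whole is not shown.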
